A study of Mus musculus with 8 samples.

Results

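Interferon-stimulated effector genes encode the proteins by which a cell carries out an interferon response. The 47 names listed here were taken by symbol, without the guanylate-binding and immunity-related GTPase families. Of these, 44 were rows of the table of 21878 genes. Mx1, Mx2 and Oas1b were not analysed here. RNA was measured by sequencing of polyadenylated transcripts in wild-type (WT) astrocytes from P0 (newborn) C57BL/6 mice. The untreated group had 4 libraries, and the treated group had 4 libraries from astrocytes given IL-1α, TNFα and C1q together, called the cocktail here. Both groups shared genotype, strain and age. The cocktail is a widely used way to bring cultured astrocytes into an inflammatory reactive state, and it contains no interferon. The labels do not say whether the libraries of a group came from separate cultures or animals, so the p-values cover the spread among these libraries alone, and that spread may be technical.

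Type I interferons act through the receptor chains Ifnar1 and Ifnar2 and the kinases Jak1 and Tyk2. A complex that contains Stat2 and Irf9 then binds the interferon-stimulated response element (ISRE) in gene promoters. Interferon gamma acts through Ifngr1, Ifngr2, Jak1 and Jak2, and its response runs through the gamma-activated site (GAS). The factor Irf1 can bind ISRE-like sequences and is induced by inflammatory cytokines as well as by interferons. The effector genes sense or destroy foreign nucleic acid, tag proteins with Isg15, block virus entry at membranes or limit the nucleotides a virus needs.

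Library totals were 19195898 to 20640490 fragments, and values are FPKM, which divides fragments by gene length and by library depth. A count of 0 allows up to 3 fragments, or 0.0727 to 0.0781 FPKM for a gene of 2 kb (counting error only). All 8 astrocyte markers examined were among the genes tested. Their summed level was 979 to 1110 FPKM in untreated and 823 to 845 FPKM in cocktail libraries. Of the 8, 6 were called lower and 2 higher: mean Gfap was 412 FPKM untreated and 189 with cocktail and Sox9 57.4 and 30.02, while Aqp4 was 165 and 253 and Slc1a2 9.73 and 52.3. The 18 microglial markers summed to 52.4 to 54.0 FPKM in untreated libraries and to 48.1, 47.6, 80.3 and 103 FPKM in cocktail libraries 1 to 4. Of these, 5 were called higher and 1 lower among the 11 tested, and Tmem119, P2ry12 and Ptprc were under 1 FPKM in every library. Of 4 markers of plasmacytoid dendritic, T and NK cells, Siglech, Cd3e and Ncr1 were at 0 in every library, and Nkg7 was at 0.0596 FPKM in untreated library 4 and at 0 elsewhere. Cocktail libraries 3 and 4 lay apart from 1 and 2: a chi-square of fragments per gene was 2.29 and 2.55 within these pairs and 4.12 to 6.79 between them. Pairs of untreated libraries stood at 2.11 to 4.50, with libraries 2 and 4 the furthest apart. The summed markers of mural cells were 557 to 627 FPKM untreated and 122 to 137 FPKM with cocktail. The sums for neurons, the oligodendrocyte lineage, endothelium and ependyma were also lower in every cocktail library than in any untreated one. Most of each untreated sum came from 1 gene: Acta2, Stmn2, Olig1, Kdr and Foxj1, in that order. Called lower among those tested were 3 of 3 mural, 2 of 3 neuronal, 3 of 5 oligodendrocyte, 1 of 1 endothelial and 2 of 2 ependymal markers. Tubb3 was not called. Syt1, not tested, had means of 0.781 FPKM untreated and 0.930 with cocktail. Rbfox3, Snap25, Pecam1, Cldn5, Cdh5 and Tek were under 1 FPKM in every library. Within the oligodendrocyte list Pdgfra went the other way, from a mean of 0.934 to 3.07 FPKM. The 5 fibroblast markers summed to 95.6 to 117 FPKM untreated and 76.7 to 101 with cocktail, with 3 called higher and 2 lower. Among them mean Lum was 0.237 FPKM untreated and 7.69 with cocktail and Dcn 1.45 and 8.31, while Col1a1 and Col1a2 were lower. The part of these marker differences in the members' changes was not tested. Of the 11845 genes tested 67.7% were called. Of all calls 39.3% were higher with the values as deposited and 49.8% after the libraries were rescaled by median ratios, so the side on which a small difference falls depends on the scaling.

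Most of the effector genes rose in cocktail libraries. Of the 37 that had at least 1 FPKM in at least 4 libraries and were tested, 32 were called higher, against 26.6% of all genes tested. Another 4 were called lower, against 41.1% of all genes, and Samd9l was not called. A call is a limma adjusted p under 0.05 on log2(FPKM + 1), adjusted over all 11845 genes. At least a 2-fold change on that scale was found for 22 members upward, against 4.08% of all genes, and for 0 downward, against 4.56%. The median log2 change was 1.15 over the 37 members and -0.050 over all genes tested. The lists were known to move when they were chosen, so these counts are descriptions. The 4 cocktail libraries lay above the 4 untreated libraries in 32 of the 37 members, against 24.1% of all genes. They lay below them in Ifit2, Samhd1 and Slfn9, against 38.5% of all genes. Together the 44 genes took 0.255% ± 0.0292 (SD, n = 4) of untreated fragments and 0.547% ± 0.0270 (SD, n = 4) of cocktail fragments. In bulk RNA, fewer cells of a type and less RNA per cell cannot be told apart.

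**Figure D1:**
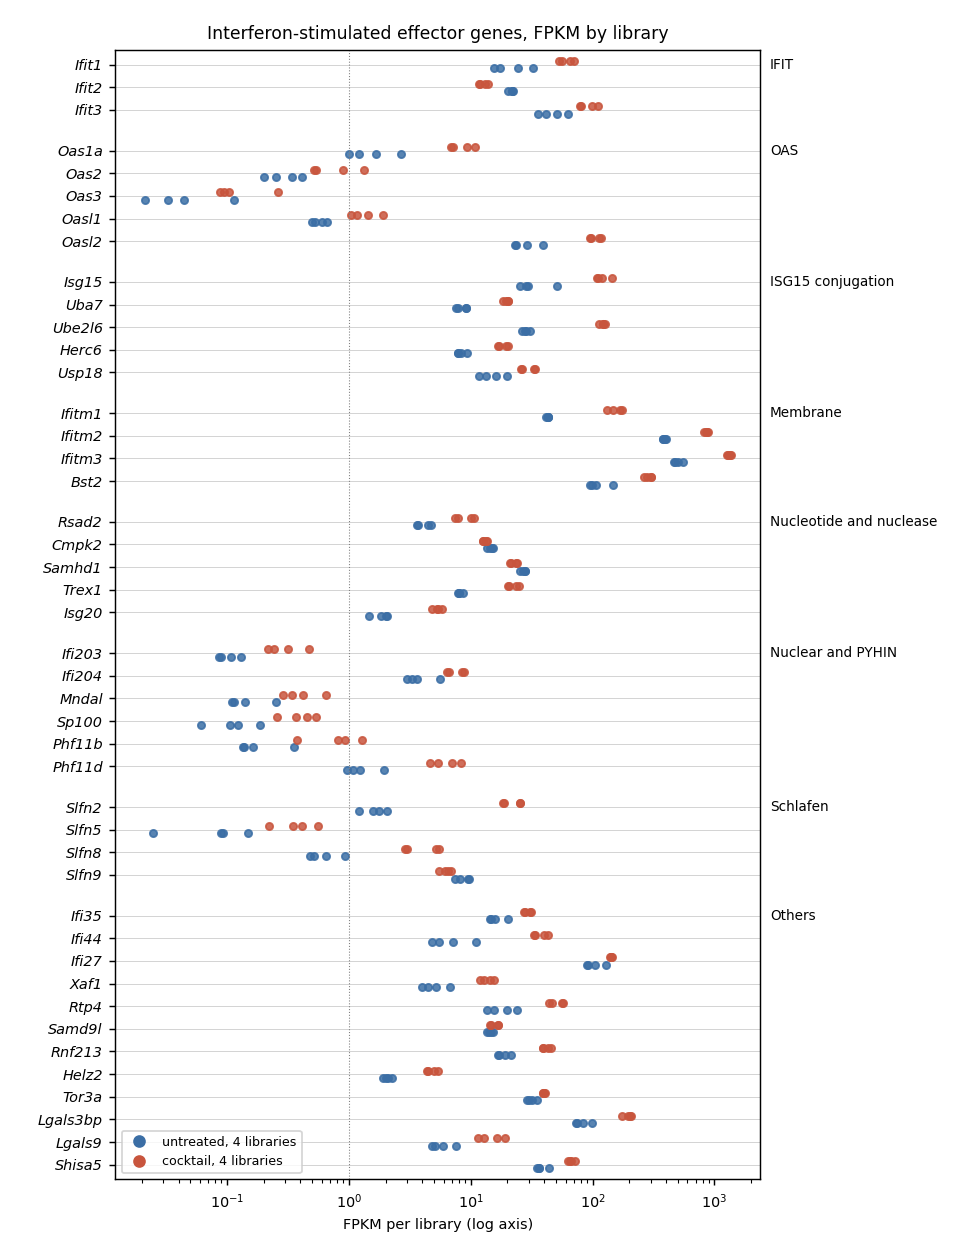
FPKM of the 44 effector genes on a log axis, by role, with 1 point per library (blue, 4 untreated; red, 4 cocktail) and a dotted line at 1 FPKM. Cocktail points lie to the right of the untreated points in most rows, while Ifit2, Samhd1 and Slfn9 show the reverse order.

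**Figure D2:**
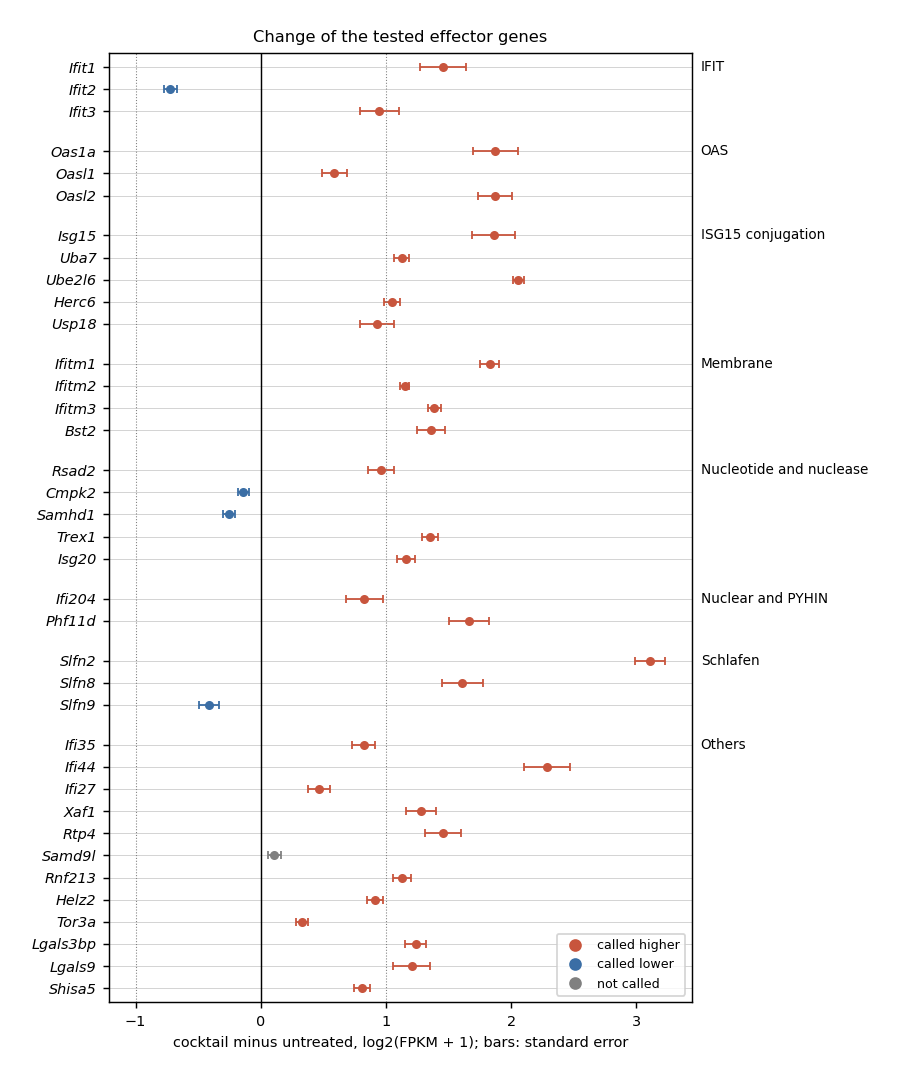
Fitted difference, cocktail minus untreated, of the 37 tested effector genes on the log2(FPKM + 1) scale with its standard error; dotted lines mark a 2-fold change. Slfn2 has the largest rise at 3.11 and Ifit2 the largest fall at -0.72.

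Untreated libraries already held most of these transcripts, at very unequal levels. Oas3 and Slfn5 had no more than 3 fragments in some untreated libraries, which a count of 0 allows. Ifitm3 at 502 ± 38.7 FPKM, Ifitm2 at 386 ± 12.5 and Bst2 at 112 ± 24.4 (SD, n = 4 each) had the highest untreated levels per length. Oas2, Oas3, Ifi203, Mndal, Sp100, Phf11b and Slfn5 stayed below the level needed for the test. Of these 7, all but Oas3 had every cocktail library above every untreated one, against 7.8% of the 5413 genes below that level. Without the filter on low values, limma called the same 6 higher, with adjusted p of 0.0016 to 0.015, and Oas3 reached 0.099. That fit called 9.09% of the same 5413 genes higher, and 20.3% of its 17258 genes in all. Oasl1 and Slfn8 reached 1 FPKM in cocktail libraries alone, so they could enter the test only by differing between the groups. Both are included in the 32 called higher, and Slfn8 in the 22 with at least a 2-fold rise.

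The promoters are shown here because members that moved in opposite directions could be read side by side. RefSeq promoters (GRCm38.p6) were matched for 38 of the 44 members. The window of 300 bases, from 250 before to 50 after the start, was searched on both strands for the ISRE core (GAAA, any 2 bases, GAAA), the GAS (TTC, any 3 bases, GAA) and the kappa-B site (GGGA, any base, TTTCC). A gene counted where any of its promoters held a match. The ISRE core was found in 17 of the 38 members, 44.7%, against 3.99% of 27025 genes with a promoter and 3.67% of the 9545 tested. The members were listed as interferon-stimulated, so this share is a property of the list and not independent of it. By call, it was found in 11 of 27 members called higher, in 1 of 4 called lower and in 5 of 6 not tested. The 11 called higher were Ifit1, Ifit3, Oas1a, Isg15, Ifitm2, Ifitm3, Bst2, Rsad2, Slfn8, Lgals9 and Shisa5. Their median log2 change was 1.36, and that of the 16 members called higher without the core was 1.26. The GAS was found in 8 of 38 members, against 9.55% of the 27025 genes, and the kappa-B site in 0 of 38, against 0.466%. A match describes letters in this window; it is not a binding site or a cause, and no match says nothing about a factor.

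Shown are the 250 bases before the start, 5′ to 3′ on the strand of the gene, for those members with a match that rose most or fell most. Capitals mark matches to the ISRE core or the GAS on either strand. The first 3 belong to genes that rose and the last 3 to genes that fell.
Oas1a, chr5:120907526-120907775, minus strand: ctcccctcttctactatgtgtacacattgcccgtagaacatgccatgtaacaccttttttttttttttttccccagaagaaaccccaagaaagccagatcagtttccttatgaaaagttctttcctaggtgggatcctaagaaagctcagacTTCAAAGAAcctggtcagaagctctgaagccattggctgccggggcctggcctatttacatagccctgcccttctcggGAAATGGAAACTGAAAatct
Isg15, chr4:156200819-156201068, minus strand: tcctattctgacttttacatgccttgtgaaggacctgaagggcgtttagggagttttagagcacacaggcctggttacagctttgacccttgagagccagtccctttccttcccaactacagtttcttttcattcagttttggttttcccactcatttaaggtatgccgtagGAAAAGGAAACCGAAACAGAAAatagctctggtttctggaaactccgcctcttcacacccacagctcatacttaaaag
Slfn8, chr11:83020811-83021060, minus strand: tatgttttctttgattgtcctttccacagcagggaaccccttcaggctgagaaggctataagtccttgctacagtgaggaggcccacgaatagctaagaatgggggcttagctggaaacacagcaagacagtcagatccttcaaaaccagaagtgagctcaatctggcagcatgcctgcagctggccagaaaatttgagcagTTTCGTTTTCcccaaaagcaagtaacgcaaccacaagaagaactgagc
Ifit2, chr19:34550444-34550693, plus strand: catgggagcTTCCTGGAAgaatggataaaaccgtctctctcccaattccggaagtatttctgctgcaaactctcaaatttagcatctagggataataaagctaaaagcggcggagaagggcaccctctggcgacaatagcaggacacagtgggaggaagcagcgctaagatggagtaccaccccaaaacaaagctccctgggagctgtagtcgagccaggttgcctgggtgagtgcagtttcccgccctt
Slfn9, chr11:82991831-82992080, minus strand: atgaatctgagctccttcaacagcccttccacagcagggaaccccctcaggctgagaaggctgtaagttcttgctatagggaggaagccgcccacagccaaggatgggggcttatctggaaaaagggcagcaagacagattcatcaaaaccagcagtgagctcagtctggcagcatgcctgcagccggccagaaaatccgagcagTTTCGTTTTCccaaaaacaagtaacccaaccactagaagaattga
Samhd1, chr2:157135097-157135346, minus strand: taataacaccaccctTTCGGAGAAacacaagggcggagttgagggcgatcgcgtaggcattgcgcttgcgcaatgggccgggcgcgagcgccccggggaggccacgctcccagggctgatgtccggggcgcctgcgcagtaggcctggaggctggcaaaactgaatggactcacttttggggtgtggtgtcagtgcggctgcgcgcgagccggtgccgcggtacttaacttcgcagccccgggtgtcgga
Isg15 held 3 overlapping ISRE cores, the first of them 78 bases before the start, and Oas1a held 2, at 20 and 14 bases, with a GAS at 98 bases. Slfn8 and Slfn9, which moved in opposite directions, both held TTTCGTTTTC, the ISRE core read from the other strand, at 48 and 45 bases before the start. Their 300-base windows aligned at 80.5% identity, 248 of 308 aligned positions. The corresponding identity was 48.7% for Isg15 and Oas1a and 45.5% for Ifit2 and Samhd1. Ifit2 and Samhd1 had no ISRE core in the window, and each had 1 GAS, 241 and 235 bases before the start. Slfn8 and Ifit2 each had 2 promoters, and the first that held a match was shown. For Ifit2, part of the bases shown lies inside the gene span given below.

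The Ifit genes encode cytosolic proteins that bind RNA, Ifit1 in particular RNA with a foreign 5′ end. Ifit1 and Ifit3 rose while Ifit2 fell. Ifit1 (chr19:34640889-34650009) was at 17.5, 15.6, 24.6 and 32.5 FPKM untreated and at 56.3, 53.2, 65.4 and 70.8 FPKM with cocktail, in the order of libraries 1 to 4 that is kept throughout. The groups did not overlap, and the means of 22.5 ± 7.66 and 61.4 ± 8.09 FPKM (SD, n = 4) differed 2.72-fold. The log2 difference was 1.45 (SE 0.182; limma, adjusted p = 1.9e-05). Ifit3 (chr19:34583119-34588982), which binds and stabilises Ifit1 in other settings, was at 41.6, 35.6, 50.8 and 62.9 FPKM untreated and at 79.6, 78.4, 98.0 and 111 FPKM with cocktail. Its groups did not overlap, and the log2 difference was 0.95 (SE 0.156; limma, adjusted p = 1.9e-04). The reference holds a near-identical copy, Ifit3b, and how reads were divided between them is not given in the sources used here, so the value of Ifit3 is uncertain.

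Ifit2 (chr19:34550550-34576534) was at 21.7, 20.3, 22.1 and 21.7 FPKM in untreated and at 11.7, 11.8, 13.8 and 13.1 FPKM in cocktail libraries. Every cocktail library lay below every untreated one, and the untreated libraries were close together. The mean fell 1.70-fold, from 21.4 ± 0.804 to 12.6 ± 1.04 FPKM (SD, n = 4), a log2 difference of -0.72 (SE 0.0522; limma, adjusted p = 1.4e-07). The gene lies 6585 bases from Ifit3 on the same chromosome. Within each library the ratio of Ifit1 to Ifit2 is free of library scaling. It was 0.81, 0.77, 1.12 and 1.49 untreated and 4.81, 4.51, 4.72 and 5.39 with cocktail.

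The oligoadenylate synthetases are sensors of double-stranded RNA whose product activates a ribonuclease. All 3 tested members were called higher, but Oasl1 could enter the test only by differing between the groups. Oas1a was at 1.00, 1.20, 1.66 and 2.68 FPKM untreated and at 6.89, 7.11, 9.38 and 10.8 FPKM with cocktail. Its lowest cocktail library stood above its highest untreated library, untreated 4. The means of 1.64 ± 0.749 and 8.54 ± 1.86 FPKM (SD, n = 4) differed 5.21-fold, with a log2 difference of 1.87 (SE 0.179; limma, adjusted p = 1.7e-06). Oas1a has near copies in its cluster, so its reads may be shared with them.

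Oasl2, an OAS-like protein with ubiquitin-like domains, was the most abundant member of this family per length. It was at 23.6, 23.0, 29.0 and 39.2 FPKM untreated and at 96.8, 94.9, 114 and 117 FPKM with cocktail, with no overlap. The log2 difference was also 1.87 (SE 0.139; limma, adjusted p = 1.9e-07). Oasl1, its neighbour on chromosome 5, was at 0.501, 0.529, 0.660 and 0.599 FPKM untreated and at 1.03, 1.17, 1.44 and 1.89 FPKM with cocktail. Its log2 difference of 0.59 (SE 0.0992; limma, adjusted p = 2.2e-04) is held down by the pseudocount of 1 and was 1.29 with voom on the recovered fragments. Oas2 rested on 16 to 112 fragments per library and Oas3 on 2 to 25. Mean FPKM of Oas2 was 0.302 ± 0.0937 untreated and 0.823 ± 0.389 with cocktail (SD, n = 4). Oas3 overlapped between the groups, at 0.0211 to 0.113 and 0.0878 to 0.261 FPKM.

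The 5 genes of the Isg15 pathway were all called higher: the ubiquitin-like modifier itself, its activating enzyme Uba7, its conjugating enzyme Ube2l6, the mouse ligase Herc6 and the protease Usp18, which removes Isg15 and also restrains the type I receptor. Isg15 was at 28.3, 25.2, 29.7 and 50.6 FPKM untreated and at 108, 109.9, 119.9 and 143 FPKM with cocktail. Untreated library 4 stood above the other untreated libraries and below every cocktail library. The means of 33.4 ± 11.6 and 120.3 ± 15.96 FPKM (SD, n = 4) differed 3.60-fold, a log2 difference of 1.86 (SE 0.174; limma, adjusted p = 1.4e-06).

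Ube2l6 was at 28.4, 26.4, 28.04 and 30.5 FPKM untreated and at 114, 122, 122 and 126 FPKM with cocktail. Its libraries were tight within each group, and the log2 difference was 2.06 (SE 0.0442; limma, adjusted p = 3.7e-12). Uba7 was at 7.61, 9.09, 7.81 and 9.16 FPKM untreated and at 19.4, 20.03, 20.1 and 18.4 FPKM with cocktail, a log2 difference of 1.12 (SE 0.0581; limma, adjusted p = 6.6e-09). The conjugating enzyme thus rose 4.27-fold and the activating enzyme 2.32-fold over group means. Herc6 rose 2.20-fold, from 8.33 ± 0.652 to 18.3 ± 1.69 FPKM, and Usp18 rose 1.94-fold, from 15.3 ± 3.58 to 29.7 ± 4.23 FPKM (SD, n = 4).

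Among proteins that act at membranes, Ifitm1, Ifitm2 and Ifitm3 hinder fusion of virus and cell membranes, and Bst2 (tetherin) holds budding particles at the cell surface. All 4 rose at least 2-fold. Ifitm3 was at 506, 469.8, 478 and 556 FPKM untreated and at 1342, 1359, 1264 and 1290.2 FPKM with cocktail. It had the highest level per length of the 44 genes in both groups, and its log2 difference was 1.39 (SE 0.0495; limma, adjusted p = 2.5e-10). Ifitm1 was at 43.0, 43.0, 41.3 and 43.3 FPKM untreated and at 175, 168, 148 and 130.1 FPKM with cocktail, a log2 difference of 1.83 (SE 0.0738; limma, adjusted p = 7.2e-10). Here cocktail libraries 3 and 4 stood below 1 and 2, the reverse of most members. Ifitm2 had means of 386 ± 12.5 FPKM untreated and 857 ± 32.6 with cocktail (SD, n = 4), 2.22-fold apart. The Ifitm genes are similar in sequence, so the split of reads between them is uncertain. Bst2 was at 98.6, 95.8, 107 and 148 FPKM untreated and at 278, 266, 299 and 301 FPKM with cocktail, a log2 difference of 1.36 (SE 0.111; limma, adjusted p = 4.3e-07).

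Genes that act on nucleotides and nucleic acid had 3 members called higher and 2 lower. The share called lower is near the 41.1% of all genes, and the call of Cmpk2, 1 of the 2, depended on the scaling. Trex1, the exonuclease that clears cytosolic DNA, was at 8.02, 8.57, 7.97 and 7.84 FPKM untreated and at 20.7, 20.03, 23.6 and 24.9 FPKM with cocktail. Its log2 difference was 1.35 (SE 0.0625; limma, adjusted p = 2.4e-09). Isg20, a ribonuclease, was at 1.84, 2.04, 1.47 and 2.00 FPKM untreated and at 4.84, 5.26, 5.77 and 5.42 FPKM with cocktail, a log2 difference of 1.16 (SE 0.0722; limma, adjusted p = 3.7e-08). Neither gene overlapped between the groups. Samhd1, which hydrolyses deoxynucleotides, was at 26.8, 25.4, 27.6 and 27.6 FPKM untreated and at 23.7, 23.9, 21.3 and 20.8 FPKM with cocktail. All cocktail libraries lay below the untreated ones, and the mean fell 1.20-fold, a log2 difference of -0.25 (SE 0.0483; limma, adjusted p = 6.1e-04). Without untreated library 4 and cocktail libraries 3 and 4 this was -0.15 (limma, adjusted p = 0.012).

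Rsad2 (viperin), which makes a chain-terminating nucleotide from CTP, and Cmpk2, a nucleotide kinase that can supply CTP, are neighbours on chromosome 12 with 12665 bases between them. Rsad2 (chr12:26442743-26456452) was at 3.60, 3.70, 4.45 and 4.70 FPKM untreated and at 7.86, 7.42, 10.1 and 10.6 FPKM with cocktail. Its groups did not overlap, and the log2 difference was 0.96 (SE 0.107; limma, adjusted p = 6.8e-06). Cmpk2 (chr12:26469117-26479837) was at 14.8, 13.7, 15.1 and 14.4 FPKM untreated and at 12.5, 12.6, 13.5 and 13.7 FPKM with cocktail. Cocktail library 4 lay just above untreated library 2, so the groups overlapped, and the log2 difference was -0.14 (SE 0.0421; limma, adjusted p = 0.011). This call was lost after rescaling by median ratios, at -0.080 (limma, adjusted p = 0.10), with voom, at -0.089 (adjusted p = 0.10), and without cocktail libraries 1 and 2, at -0.088 (adjusted p = 0.13).

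**Figure D3:**
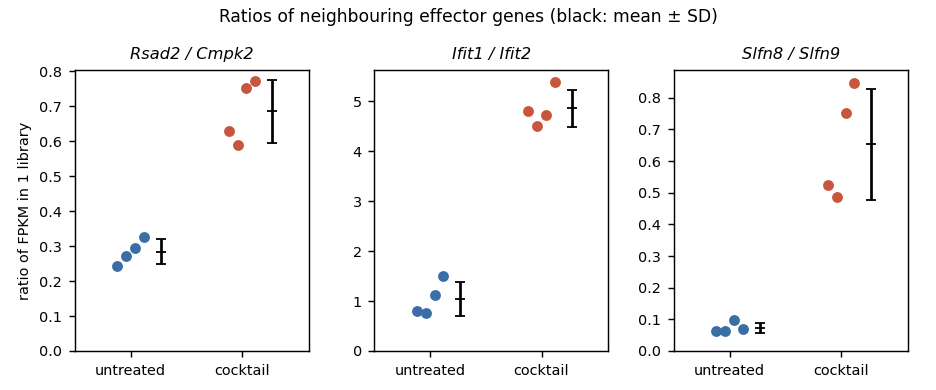
Ratio of FPKM of neighbouring effector genes within 1 library, with 1 point per library (4 untreated, 4 cocktail) and the mean ± SD in black; each axis starts at 0. The cocktail points lie above the untreated points for Rsad2 over Cmpk2, Ifit1 over Ifit2 and Slfn8 over Slfn9.

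Because a ratio within 1 library does not depend on how libraries are scaled, it shows unequal change of neighbours directly. Rsad2 over Cmpk2 was 0.24, 0.27, 0.29 and 0.33 untreated and 0.63, 0.59, 0.75 and 0.77 with cocktail. Slfn8 over Slfn9 was 0.06, 0.06, 0.10 and 0.07 untreated and 0.52, 0.49, 0.75 and 0.85 with cocktail. Ifit3 over Ifit2 had a mean of 2.22 ± 0.51 untreated and 7.25 ± 0.84 with cocktail (SD, n = 4). In the Ifitm cluster the mean ratio of Ifitm1 to Ifitm2 went from 0.11 to 0.18 and that of Ifitm3 to Ifitm2 from 1.30 to 1.53. The pairs were chosen after their values were seen and carry no test.

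The nuclear members include PYHIN proteins, which bind DNA, the nuclear body protein Sp100 and the PHD finger proteins Phf11b and Phf11d. Phf11d was at 0.960, 1.24, 1.08 and 1.93 FPKM untreated and at 5.34, 4.64, 7.06 and 8.38 FPKM with cocktail. The groups did not overlap, and the log2 difference was 1.67 (SE 0.159; limma, adjusted p = 1.6e-06). Ifi204, a PYHIN protein, was at 2.99, 3.30, 3.60 and 5.63 FPKM untreated and at 6.59, 6.37, 8.47 and 8.78 FPKM with cocktail. Its highest untreated library, 4, came close to the lowest cocktail library, 2, and the log2 difference was 0.83 (SE 0.146; limma, adjusted p = 3.2e-04). The other 4 were under 1.3 FPKM in every library, with fragments from 4 to 69 per library. Their mean FPKM untreated and with cocktail was 0.104 ± 0.0206 and 0.312 ± 0.116 for Ifi203. It was 0.154 ± 0.0663 and 0.426 ± 0.160 for Mndal and 0.119 ± 0.0523 and 0.403 ± 0.120 for Sp100. For Phf11b it was 0.197 ± 0.104 and 0.850 ± 0.373 (SD, n = 4 throughout). Ifi203, Ifi204 and Mndal, and Phf11b and Phf11d, are related neighbours, so reads may be shared among them.

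Slfn2, the Schlafen protein known for keeping T cells quiescent, had the largest rise of all members. It was at 1.77, 1.22, 1.59 and 2.07 FPKM untreated and at 18.5, 18.8, 25.5 and 25.5 FPKM with cocktail. The means of 1.66 ± 0.354 and 22.1 ± 3.97 FPKM (SD, n = 4) differed 13.3-fold, and the log2 difference was 3.11 (SE 0.121; limma, adjusted p = 5.2e-10). Slfn8 was at 0.514, 0.481, 0.931 and 0.652 FPKM untreated and at 2.88, 2.99, 5.22 and 5.47 FPKM with cocktail. Cocktail libraries 3 and 4 were 1.82 times as high as 1 and 2, and all 4 stood above the untreated libraries. The log2 difference was 1.61 (SE 0.165; limma, adjusted p = 3.2e-06), and 2.72 with voom, where no FPKM pseudocount enters.

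Slfn9 lies 10295 bases from Slfn8 and went the other way. It was at 8.22, 7.49, 9.66 and 9.45 FPKM untreated and at 5.49, 6.14, 6.94 and 6.45 FPKM with cocktail. The groups did not overlap, and the mean fell 1.39-fold, a log2 difference of -0.42 (SE 0.0796; limma, adjusted p = 5.8e-04). Slfn8 and Slfn9 are close paralogs, and reads that fit both could be assigned to either, so the size of each change is uncertain. Slfn5, below the level for a test, had a mean of 0.0892 ± 0.0511 FPKM untreated and 0.384 ± 0.140 with cocktail (SD, n = 4), on 3 to 72 fragments per library.

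Of the other 12 members, 11 were called higher and none lower. Ifi44, an interferon-induced cytosolic protein, was at 5.44, 4.82, 7.21 and 11.0 FPKM untreated and at 32.8, 33.6, 39.6 and 43.1 FPKM with cocktail. It rose 5.24-fold over group means, and the log2 difference of 2.29 (SE 0.185; limma, adjusted p = 3.8e-07) was the second largest among tested members on the log2(FPKM + 1) scale. By fold of means, with voom and with a pseudocount of 0.1, Slfn8 stood ahead of it. Rtp4, a chaperone that carries receptors to the surface, was at 15.5, 13.6, 19.7 and 23.8 FPKM untreated and at 46.2, 43.9, 56.8 and 56.5 FPKM with cocktail, a log2 difference of 1.46 (SE 0.144; limma, adjusted p = 2.3e-06). Xaf1, an antagonist of an inhibitor of apoptosis, was at 4.47, 4.01, 5.19 and 6.72 FPKM untreated and at 12.9, 11.8, 14.4 and 15.5 FPKM with cocktail, a log2 difference of 1.28 (SE 0.119; limma, adjusted p = 1.4e-06). All 3 had their highest untreated value in library 4 and no overlap between the groups.

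Lgals3bp, a secreted glycoprotein that binds galectin, was at 82.4 ± 11.7 FPKM untreated and 195 ± 13.6 with cocktail, 2.36-fold higher, and Lgals9 (galectin-9) was at 5.86 ± 1.24 and 14.9 ± 3.53 FPKM (SD, n = 4), 2.54-fold higher. The ubiquitin ligase Rnf213 rose 2.24-fold, from 18.6 ± 2.08 to 41.7 ± 3.22 FPKM, and the helicase Helz2 rose 2.31-fold, from 2.08 ± 0.140 to 4.79 ± 0.492 FPKM. Smaller rises were 1.80-fold for Ifi35, 1.76-fold for Shisa5, 1.37-fold for Ifi27 and 1.26-fold for Tor3a. Ifi27, a mitochondrial protein, was already at 104 ± 17.8 FPKM untreated and reached 142 ± 2.05 FPKM (SD, n = 4). Samd9l, a growth-restraining protein, was at 13.5, 14.2, 15.2 and 14.6 FPKM untreated and at 14.7, 14.4, 16.7 and 16.6 FPKM with cocktail. Its groups overlapped, and the log2 difference was 0.11 (SE 0.0533; limma, adjusted p = 0.093). That difference was called in 5 alternatives, among them median-ratio rescaling at 0.17 (limma, adjusted p = 0.012), and was 0.017 without cocktail libraries 3 and 4.

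Signalling genes of the pathway, outside the effectors, were read from the same fit. The table held 38, and 23 were tested, of which 18 were called higher and 3 lower (against 26.6% and 41.1% of all genes), and their median log2 change was 0.69. The 12 ligand genes were at or near 0. Of these, 9 were at 0 in every library. Ifnb1 was at 0.0629 and Ifnab at 0.0723 FPKM in untreated library 4 and at 0 elsewhere. Ifnz was above 0 in 3 libraries, at up to 0.0354 FPKM. Each of these values amounts to 1 fragment, within the 3 fragments that a count of 0 allows, so no ligand transcript was detectable at this depth. The labels give no time after treatment, and a ligand made earlier was not measured.

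All 5 tested receptor chains rose. Ifnar1 went from 12.5 ± 0.197 to 17.9 ± 0.168 FPKM and Ifnar2 from 10.4 ± 0.552 to 24.6 ± 0.678 FPKM (SD, n = 4), log2 differences of 0.49 and 1.17. Ifngr1, Ifngr2 and Il10rb rose by 1.13, 0.89 and 1.08 on the same scale. Jak2, the kinase of the gamma receptor, rose from 8.05 ± 0.164 to 29.8 ± 2.00 FPKM (SD, n = 4; log2 difference 1.76, limma, adjusted p = 1.6e-11). Tyk2 rose by 0.41 and Jak1 by 0.10 (limma, adjusted p = 0.015), and the call of Jak1 was lost without cocktail libraries 3 and 4 (0.059, adjusted p = 0.16).

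Among transcription factors, Irf7, which amplifies the type I response, was at 9.09, 8.57, 11.2 and 15.9 FPKM untreated and at 36.2, 34.8, 45.7 and 51.3 FPKM with cocktail, a log2 difference of 1.84 (SE 0.167; limma, adjusted p = 1.1e-06). Irf1 was at 18.7, 17.4, 16.9 and 16.8 FPKM untreated and at 51.5, 53.1, 51.2 and 49.4 FPKM with cocktail, a log2 difference of 1.50 (SE 0.0379; limma, adjusted p = 1.4e-11). Irf7 followed the same order of libraries as most effectors, with untreated library 4 highest, while Irf1 was even across libraries. Stat2, Stat3, Irf9 and Irf5 rose by 0.75, 0.86, 0.47 and 0.62. Irf5 reached 1 FPKM in cocktail libraries alone, so it entered the test only by differing between the groups. Irf3, which is present before infection and activated by phosphorylation, differed by -0.10 (limma, adjusted p = 0.025) and Irf2 by 0.030, not called. Of the inhibitors, Socs1, Socs3 and the phosphatase Ptpn2 rose by 0.83, 0.69 and 1.16. Pias1 and Irf2bp2 were called lower, at -0.15 and -0.27. The calls of Irf3 and Pias1 were lost after median-ratio rescaling, with voom and without cocktail libraries 1 and 2. That of Irf3 was also lost when untreated library 2, 3 or 4 or cocktail library 1 or 3 was left out (limma, adjusted p = 0.053 to 0.071).

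**Figure D4:**
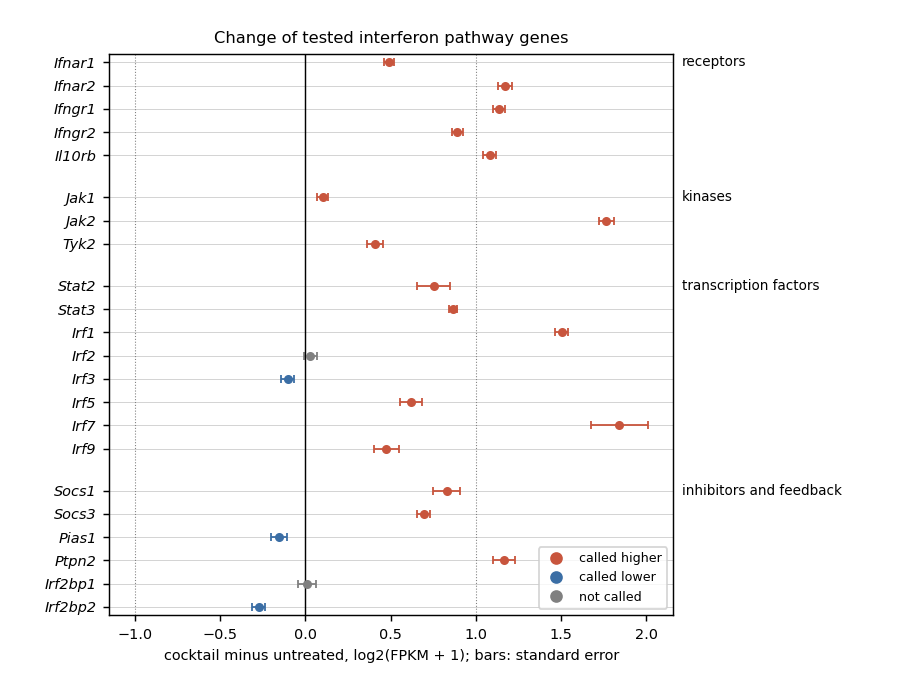
Fitted difference, cocktail minus untreated, of tested pathway genes on the log2(FPKM + 1) scale with its standard error, by role; dotted lines mark a 2-fold change. Irf7, Jak2 and Irf1 have the largest rises, at 1.84, 1.76 and 1.50, and Irf2bp2 the largest fall, at -0.27.

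Effector genes varied more between libraries of a group than genes in general did. The median coefficient of variation over the 37 tested members was 14.0% untreated and 10.3% with cocktail, against 4.58% and 5.03% over all genes tested. Untreated library 4 was the highest untreated library for 28 members, 75.7%, against 26.2% of all genes. It stood above the mean of untreated libraries 1 to 3 by a median factor of 1.20 over the members and 0.998 over all genes. The factor was at least 1.25 in 17 of the 37 members, against 2.05% of all genes. Of the 50 tested genes with the largest factor 13 were members, and none was a microglial marker. The thresholds and the library were picked after the values were seen, so these counts are descriptions.

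The members were not alike in this. Oas1a was 2.08 times as high in untreated library 4 as in the mean of the other untreated libraries, Ifi44 1.89 times, Isg15 1.83 times, Phf11d 1.77 times and Ifi204 1.70 times. Irf7 stood at 1.65 and Stat2 at 1.31. In contrast Trex1 stood at 0.958, Slfn8 at 1.02, Ifit2 at 1.02, Ifitm1 at 1.02 and Ube2l6 at 1.11, and among pathway genes Irf1 stood at 0.949 and Jak2 at 1.01. The 11 members called higher with an ISRE core in the promoter window had a median factor of 1.43 (range 1.02 to 2.08). The 16 called higher without it had a median of 1.18 (range 0.958 to 1.89), so the ranges overlapped. These genes share 1 library, and no test was made.

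Within the cocktail group, libraries 3 and 4 both stood above 1 and 2 for 29 of the 37 members, 78.4%, against 24.6% of all genes. The median ratio of these pairs was 1.17 over members and 1.00 over all genes. The microglial markers also stood higher in libraries 3 and 4, and of the 50 genes with the largest such ratio 10 were microglial markers and 1 was a member. The part of the microglial markers in the members' values was not tested. Without cocktail libraries 3 and 4, 32 members were called higher and 4 lower, with 20 at least 2-fold higher. They were also 32 and 4, with 21 at least 2-fold higher, when untreated library 4 was left out as well. In untreated library 4 the microglial markers summed to 52.4 FPKM, the lowest of the untreated libraries.

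**Figure D5:**
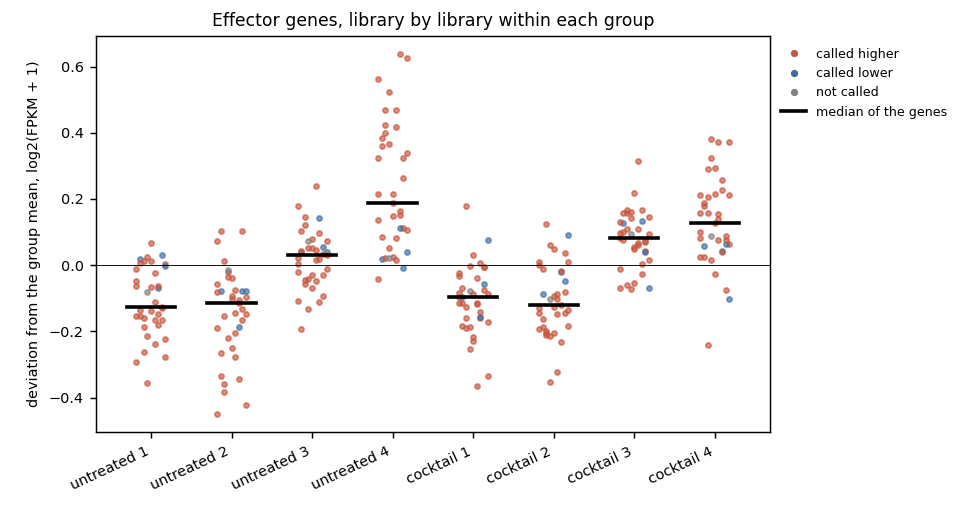
Deviation of each of the 37 tested effector genes from its group mean on the log2(FPKM + 1) scale, with 1 point per gene in each library and the median as a black line. Library by library the medians are -0.13, -0.11, 0.032 and 0.19 for untreated and -0.098, -0.12, 0.082 and 0.13 for cocktail.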

How the data were processed

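The authors deposited FPKM values for 8 libraries, 4 per group, and per the submitters' processing notes the authors used DESeq and build mm10. The aligner is not given in the sources used here. Groups and replicate numbers follow the sample titles, since the treatment labels of cocktail libraries 2 to 4 spell C1q with other digits. Within a gene the deposited FPKM stood in ratios of whole numbers, which gave whole fragments, gene lengths and library totals for the 16557 genes detected in 2 or more libraries. Replicate pairs differed by a chi-square of 2.11 to 6.79 per gene. Each library was counted as 1 sample, and the chi-square cannot show that the libraries came from separate cultures or animals.

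The 11845 genes that reached 1 FPKM in 4 or more libraries were fitted with limma 3.58.1 (R 4.3.3) without covariates, using log2(FPKM + 1) and its mean-variance trend. The two-sided p was adjusted by Benjamini-Hochberg and called under 0.05. With a pseudocount of 1, changes of genes at low levels come out too small. The fit, the recovery and the motif search were tested on simulated data. For the fit, every simulated gene had the same small extra spread, without libraries that stood apart. That simulation therefore cannot show how the fit behaves for members, which varied more. Alternatives were a pseudocount of 0.1, no filter, median-ratio rescaling, a replicate block, voom on recovered fragments with TMM factors, no variance trend, and libraries left out. Gene positions and promoters are RefSeq (GRCm38.p6).

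Members, pathway genes and markers were chosen with earlier results of these data known. Values per library are given for the 3 members of each role with the largest fitted change, for every member called lower and for every tested member not called. Of the pathway genes, 1 enters the counts and is not reported here by name.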

Additional observations from a re-analysis of the deposited data

Results flagged for a closer look

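Dixon's test for 1 library apart was run on 74 groups of 4 libraries, the untreated and cocktail libraries of each tested member. It picked 2, where chance at 1 in 20 gives 3.7. Ifitm1 in untreated library 3 was the lowest of its group at 41.3 FPKM, with the others at 43.0 to 43.3 FPKM, a narrow spread. Shisa5 in untreated library 4 was the highest of its group at 43.8 FPKM, with the others at 34.7 to 36.2 FPKM; untreated library 4 was also the highest for most other effector genes. Both genes were called higher, and both calls held without these libraries.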

How the results depend on the processing

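Over 17 alternatives and 37 tested members, 621 of 629 calls were the same as reported and 0 reversed; the 8 others were of Cmpk2 and Samd9l. The number called higher was 32 to 33 and the number called lower 4 when 1 library was left out, with 22 to 25 at least 2-fold higher. Without the filter 38 were called higher, since 6 more members were tested and called. Pathway genes called lower were 3 as reported and 1 under median-ratio rescaling, with voom, and without cocktail replicates 1 and 2. Pathway genes called higher were 17 without cocktail replicates 3 and 4. Voom gave 28 members at least 2-fold higher and moved Oasl1 from 0.59 to 1.29 and Slfn8 from 1.61 to 2.72; Samhd1 moved from -0.25 to -0.15 without untreated replicate 4 and cocktail replicates 3 and 4, which was added after the data were seen. With the replicate number as a block, 33 members were called higher and 4 lower, and 18 and 3 pathway genes. Over all 11845 genes tested, deviations of libraries that share a number correlated at -0.044, 0.078, 0.086 and -0.0071, which shows no pairing over genes in general. Among the members the order was alike in both groups, with median deviations of -0.13, -0.11, 0.032 and 0.19 untreated and -0.098, -0.12, 0.082 and 0.13 with cocktail. With the block, the limma adjusted p of Ifit3 went from 1.9e-04 to 2.3e-07, and that of Ube2l6 from 3.7e-12 to 7.7e-10. A pairing among the members was not tested. Members under 1 FPKM rest on few fragments and carry the widest counting error.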
